A study of Homo sapiens with 32 samples.

Results

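The genes described here are 40 genes of ribosome biogenesis of the kind that MYC proteins are known to activate. They were taken from a given list of symbols, with no rule on their measured values. Earlier results of these data were known when the list was chosen. All 40 were found among the 18980 coding genes of the files, and all 40 passed the filter on low counts that left 13260 genes for testing. Their mean level over the libraries ran from 13.0 count_norm for GAR1 to 719 for NCL, where count_norm is the authors' CPM (a count scaled to library size) over coding genes.

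RNA-seq of total RNA was made from RH4, an established human alveolar rhabdomyosarcoma line, exposed to compounds that the series describes as inhibitors or degraders of the acetyltransferases CBP and p300. The 16 treated libraries covered dCBP, IHK-44, A485 and JQAD, each at 1 uM and at 100 nM and each for 2 h and for 6 h. The 4 control libraries were DMSO, the solvent, and NT, an abbreviation left unexplained in the labels, at the same times. Every condition was 1 library of 1 cell line, so a compound's libraries at both doses were set as 1 level against DMSO and NT of the same time. The spread in each test therefore holds the difference between doses and between DMSO and NT, and the p-values measure only the spread between these libraries. In bulk RNA, fewer cells of a kind and less RNA per cell cannot be told apart, and count_norm is a share of the coding counts, not an amount per cell.

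Ribosomes are built in the nucleolus, where RNA polymerase I transcribes the precursor of the ribosomal RNAs. Small nucleolar RNPs modify that RNA, and large sets of assembly factors fold, cut and package it into the small and the large subunit. MYC and MYCN are transcription factors that bind E-box sequences, with the palindrome CACGTG as the best known form, at the promoters of many of these genes. In rhabdomyosarcoma with the PAX3-FOXO1 fusion, MYCN is among the genes known to be driven by enhancers that carry CBP and p300.

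The libraries held between 13466631 and 16799327 expected counts in coding genes, and no gene of the 40 had fewer than 131 in a library. The muscle markers MYOD1, MYOG, DES, PAX3 and FGFR4 were present in all libraries, and all 5 fell with dCBP and with IHK-44 at 6 h. With 100 nM dCBP the fall of DES and FGFR4 was small, at log2 ratios to DMSO of -0.074 and -0.062. The 4 markers of blood, epithelium and endothelium summed to between 0.0662 and 0.708 count_norm per library, and at least 2 of the 4 were at 0 in every library. Coding genes held between 27.9% and 53.9% of the deposited TPM, so TPM of a coding gene also moves with RNA outside these genes. That share went with treatment: it was between 27.9% and 35.4% with dCBP and IHK-44, and between 39.3% and 44.5% in the controls.

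MYC and MYCN fell within 2 h with dCBP and IHK-44, and their levels stood lower still at 6 h. MYC stood at 75.6 and 63.4 count_norm in DMSO and NT at 2 h, and at 67.6 and 73.3 at 6 h. With dCBP it stood at 6.95 (1 uM) and 8.91 (100 nM) at 2 h and at 1.48 and 2.05 at 6 h. With IHK-44 it stood at 5.20 and 5.86 at 2 h and at 1.26 and 0.833 at 6 h. No library of either compound came near the controls. A485 separated by dose: MYC was at 5.75 (1 uM) and 37.4 (100 nM) at 2 h and at 5.54 and 43.7 at 6 h. JQAD libraries lay between 70.4 and 74.0, within the range of the controls.

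The paralogue MYCN followed the same order. It was at 67.1 and 61.7 count_norm in DMSO and NT at 2 h, and at 73.2 and 70.0 at 6 h. With dCBP it stood at 8.57 (1 uM) and 12.6 (100 nM) at 2 h and at 3.24 and 2.69 at 6 h, and with IHK-44 at 5.05 and 5.93, then 1.02 and 3.33. With A485 it stood at 6.60 (1 uM) and 30.9 (100 nM) at 2 h and at 7.72 and 35.2 at 6 h. Every library of these 3 compounds lay below every control. JQAD libraries lay between 66.6 and 72.0.

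In the fit across all genes (quasi-likelihood F test of edgeR, p-values adjusted by Benjamini-Hochberg), MYC at 6 h changed by a log2 of -5.46 ± 0.876 (SE) with dCBP, adjusted p = 0.000131, and by -6.23 ± 0.920 with IHK-44, adjusted p = 6.51e-05. MYCN at 6 h changed by -4.75 ± 0.691 with dCBP (edgeR, adjusted p = 5.75e-05) and by -5.20 ± 0.705 with IHK-44 (adjusted p = 3.04e-05). With A485, where the libraries of the 2 doses differ widely, MYCN passed at -1.81 ± 0.547 (adjusted p = 0.0334) and MYC did not, at -1.58 ± 0.637 (adjusted p = 0.0942). At 2 h both genes passed with dCBP (MYC -3.18 ± 0.715, adjusted p = 0.0183, and MYCN -2.65 ± 0.587, adjusted p = 0.0170). Both also passed with IHK-44 at 2 h, MYC at -3.70 ± 0.743 (edgeR, adjusted p = 0.00884) and MYCN at -3.59 ± 0.632 (adjusted p = 0.00445).

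At 6 h, 28 of the 40 ribosome biogenesis genes were lower with dCBP and none was higher, where lower and higher mean an adjusted p under 0.05. Among all genes tested, 22.4% were lower and 23.2% higher in that comparison. With IHK-44, 28 of 40 were lower and none higher, against 21.4% lower and 20.7% higher of all genes. With A485, 10 were lower and none higher, against 8.7% and 7.87%. With JQAD no gene of the 40 passed in either direction, and 0% of all genes did. At an unadjusted p under 0.05 the JQAD count was also 0 of 40, and DESeq2 called 0 of 40. The comparisons share their control libraries, so the counts of the compounds are not independent of each other. The IHK-44 count was 14 without the 1 uM library, 17 without DMSO and 18 without NT. The A485 count was 0 without the 1 uM library or without NT, 1 without DMSO and 24 without the 100 nM library. With 1 library left in a level, that library is assumed to vary like the other groups.

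The changes were small in size and went mostly one way. The median log2 change of the 40 genes at 6 h was -0.40 for dCBP and -0.39 for IHK-44. It was -0.26 for A485 and 0.019 for JQAD. Over all genes tested the medians were 0.065, 0.057, 0.019 and -0.002. Over the 8891 genes with a mean level between those of GAR1 and NCL, which is the range of the 40, they were 0.019, 0.023, -0.009 and -0.009, and 26.2%, 24.5%, 10.5% and 0% of those genes were lower. The fitted value was below 0 for 39 of the 40 genes under dCBP and 38 under IHK-44, for 37 under A485 and for 18 under JQAD. The lowest fitted change was -1.25, for RRS1 with IHK-44, while MYC and MYCN fell by far more.

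**Figure D1:**
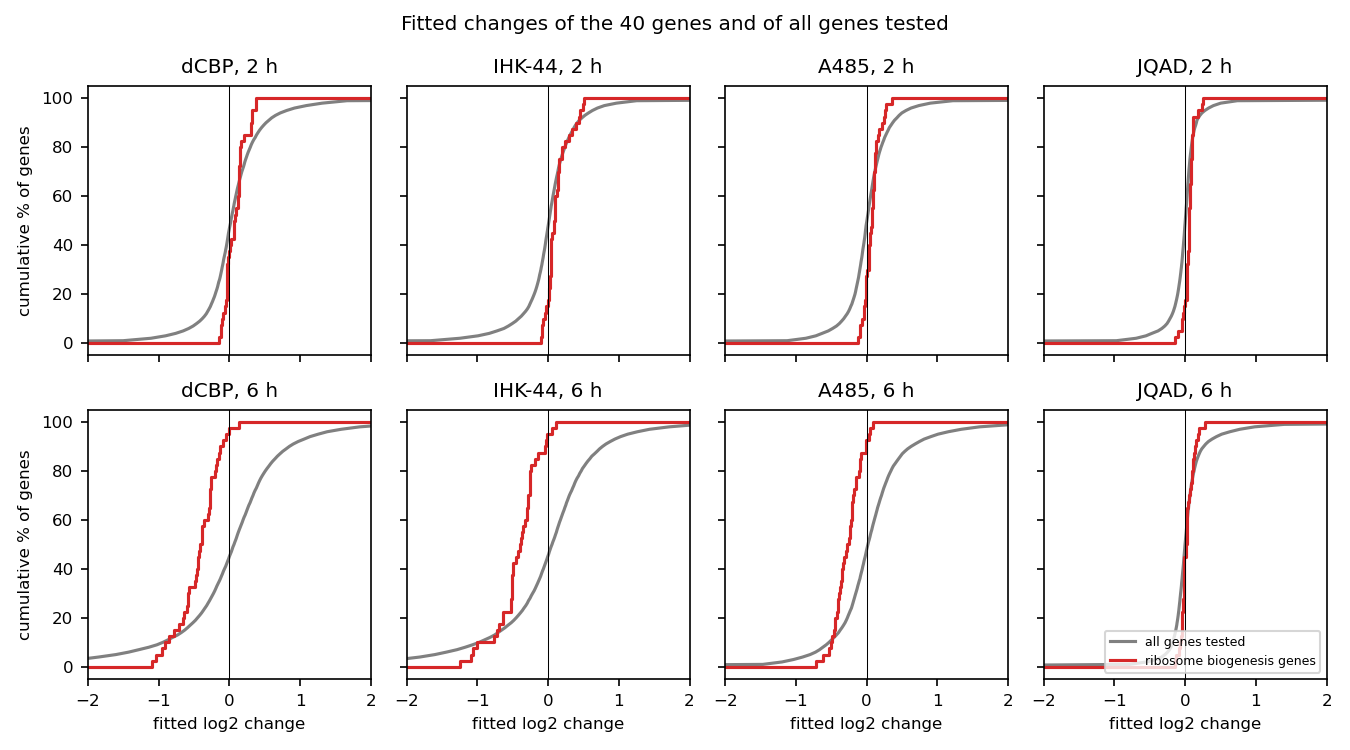
Cumulative share of genes (y axis, %) against the fitted log2 change from the controls (x axis), for each compound (columns) at 2 h (top row) and 6 h (bottom row). The red line is the 40 ribosome biogenesis genes and the grey line all 13260 genes tested. Through most of its range at 6 h the red line lies to the left of the grey one with dCBP, IHK-44 and A485 (medians -0.40, -0.39 and -0.26), and it reaches neither tail of the grey line.

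The scaling of the libraries sets where 0 lies. TMM scaling gave the values above. With library sizes alone, the median of all genes moved from 0.065 to 0.222 with dCBP, from 0.057 to 0.225 with IHK-44 and from 0.019 to 0.108 with A485. The calls over all genes then went from 2964 lower and 3074 higher to 2158 and 4703 for dCBP, from 2842 and 2742 to 2166 and 4699 for IHK-44, and from 1154 and 1043 to 967 and 1655 for A485. Under that scaling 18, 16 and 9 of the 40 genes were lower, TCOF1 was higher with dCBP (0.29, edgeR, adjusted p = 0.0125), and RRN3 was higher with IHK-44 (0.23, adjusted p = 0.0336). A change of scaling moves all genes of a library by nearly the same amount. The distance of the 40 genes' median from the median of all genes could therefore hardly move, and its stability is no test of the result. Under TMM and under library sizes alone it was -0.47 and -0.47 for dCBP, -0.44 and -0.44 for IHK-44, and -0.28 and -0.29 for A485. Genes near 0 changed sign with the scaling and had passed under neither: FBL, NHP2, RRN3, NOP14 and RRP9 were above 0 with dCBP under library sizes alone, and GAR1, NHP2, TCOF1 and DDX18 with IHK-44.

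The promoters of the genes that moved most and least are shown next, because the E-box in them is the sequence through which MYC proteins are known to bind. RefSeq promoter windows of GRCh38.p14, from 250 bases before to 50 bases after an annotated start, were matched to 32 of the 40 genes by symbol. The 8 genes without an entry were TCOF1, DDX18, RRP1B, RRS1, NOLC1, RRP12, NOP58 and BOP1. The first 5 windows belong to the genes with the lowest mean change of dCBP and IHK-44 at 6 h that had an entry, with CACGTG in capitals, and for DDX21 the window of the downstream start is given.
WDR43, GRCh38.p14 chr2:28894417-28894716, strand +: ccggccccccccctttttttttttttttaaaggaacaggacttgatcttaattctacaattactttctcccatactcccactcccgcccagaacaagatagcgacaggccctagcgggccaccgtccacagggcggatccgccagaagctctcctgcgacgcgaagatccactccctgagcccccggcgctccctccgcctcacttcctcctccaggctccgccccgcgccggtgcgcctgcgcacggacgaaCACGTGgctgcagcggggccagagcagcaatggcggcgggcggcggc
BYSL, GRCh38.p14 chr6:41921249-41921548, strand +: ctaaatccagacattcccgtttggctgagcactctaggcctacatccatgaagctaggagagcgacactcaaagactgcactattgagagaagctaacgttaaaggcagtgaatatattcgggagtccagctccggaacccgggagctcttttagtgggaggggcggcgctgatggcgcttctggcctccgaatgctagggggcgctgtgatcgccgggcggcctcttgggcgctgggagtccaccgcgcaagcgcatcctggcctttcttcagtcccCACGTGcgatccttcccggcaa
DDX21, GRCh38.p14 chr10:68956397-68956696, strand +: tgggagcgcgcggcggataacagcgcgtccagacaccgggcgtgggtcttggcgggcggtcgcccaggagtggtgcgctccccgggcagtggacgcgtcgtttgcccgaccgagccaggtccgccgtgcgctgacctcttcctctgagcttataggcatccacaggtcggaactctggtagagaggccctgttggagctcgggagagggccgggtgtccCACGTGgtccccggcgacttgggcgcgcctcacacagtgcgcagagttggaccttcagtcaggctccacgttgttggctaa
NOP16, GRCh38.p14 chr5:176388549-176388848, strand -: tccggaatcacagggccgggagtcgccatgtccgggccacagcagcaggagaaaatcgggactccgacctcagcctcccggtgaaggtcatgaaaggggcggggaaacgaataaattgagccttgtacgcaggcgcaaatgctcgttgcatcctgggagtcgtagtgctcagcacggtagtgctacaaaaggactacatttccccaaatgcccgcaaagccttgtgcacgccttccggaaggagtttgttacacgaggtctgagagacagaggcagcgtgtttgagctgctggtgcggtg
DKC1, GRCh38.p14 chrX:154762614-154762913, strand +: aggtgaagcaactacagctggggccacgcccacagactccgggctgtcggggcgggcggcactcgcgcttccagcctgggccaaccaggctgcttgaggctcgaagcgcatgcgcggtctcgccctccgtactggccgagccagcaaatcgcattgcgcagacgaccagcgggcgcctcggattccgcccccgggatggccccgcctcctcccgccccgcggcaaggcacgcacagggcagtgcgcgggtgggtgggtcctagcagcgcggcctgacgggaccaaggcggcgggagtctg
CACGTG lies at position +4 from the start in WDR43, at +29 in BYSL and at -31 in DDX21, and the windows of NOP16 and DKC1 do not hold these letters. The next pair belongs to genes at the other end of the order, LYAR (downstream start) and NHP2, neither of which passed at 6 h for any compound.
LYAR, GRCh38.p14 chr4:4289972-4290271, strand -: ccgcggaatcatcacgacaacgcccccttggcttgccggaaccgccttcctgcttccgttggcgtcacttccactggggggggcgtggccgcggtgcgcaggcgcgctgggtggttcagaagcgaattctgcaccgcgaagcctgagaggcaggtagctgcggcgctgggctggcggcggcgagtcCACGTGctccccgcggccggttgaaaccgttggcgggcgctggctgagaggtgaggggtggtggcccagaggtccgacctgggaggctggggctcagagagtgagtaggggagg
NHP2, GRCh38.p14 chr5:178153836-178154135, strand -: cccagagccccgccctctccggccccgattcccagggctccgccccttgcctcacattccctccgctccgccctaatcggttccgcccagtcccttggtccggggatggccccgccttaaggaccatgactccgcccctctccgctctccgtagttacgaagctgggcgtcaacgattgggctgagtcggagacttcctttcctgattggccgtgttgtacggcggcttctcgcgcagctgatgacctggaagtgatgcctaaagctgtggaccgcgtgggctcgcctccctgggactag
In LYAR the palindrome lies at -64, and the NHP2 window does not hold it. The other annotated windows of LYAR and DDX21 do not hold it either. The windows of RRN3, which lies between NHP2 and LYAR in that order, do not hold it and are not shown.

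CACGTG, which reads the same on both strands, was in at least 1 window of 16 of the 32 genes, or 50%. It was in 12.4% of the 10785 genes tested that have a window, in 8.77% of all 27305 genes with one, and in 33.3% of 63 other ribosome biogenesis genes. Counted by window, 39.0% of the 41 windows of the 40-gene list held it, against 9.05% for all genes tested. In 15 of the 16 windows of the list that held it, the motif began within 50 bases of the start, against 77.3% of the 22 windows of other ribosome biogenesis genes and 39.7% of the 1439 windows of all genes tested. That distance was chosen after the positions were seen. The related letters CATGTG (searched on both strands, no overlap with CACGTG) were in 6.25% of the 32 genes and 10.1% of all genes tested. GC content was alike, with a median of 64.0% in the list and 64.7% in all genes tested, and so was the number of CpG dinucleotides per window, with medians of 26 and 25. The list was chosen as genes of the kind that MYC proteins are known to activate, so its share of CACGTG is not independent of that choice. These are descriptions of letters and not of bound sites.

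Genes with and without the palindrome overlapped in their change. The shares of all genes tested that were lower at 6 h were 22.4% (dCBP), 21.4% (IHK-44) and 8.7% (A485). Of the 16 genes with CACGTG, 10 were lower at 6 h with dCBP and 10 with IHK-44, with medians of -0.42 and -0.47. Of the 16 without it, 13 were lower with each compound, with medians of -0.42 and -0.37. With A485, 3 of the 16 with it and 4 of the 16 without it were lower. The difference between these sets was not tested.

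The 12 assembly factors of the small subunit, the largest group by role, gave 10 lower genes under dCBP, 9 under IHK-44 and 5 under A485. Of all genes tested, 22.4%, 21.4% and 8.7% were lower. The groups by role were not tested against each other. In each pair of values of a compound below, 1 uM comes first and 100 nM follows. WDR43, a component of the UTP-A complex that binds the nascent precursor, was the lowest of them with dCBP and with IHK-44. It stood at 126 and 113 count_norm in DMSO and NT at 2 h and at 115 and 110 at 6 h. At 6 h it stood at 62.2 (1 uM) and 56.0 (100 nM) with dCBP, at 60.0 and 61.2 with IHK-44, and at 75.5 and 102.7 with A485. All 4 libraries of dCBP and IHK-44 lay below both A485 libraries, which lay below the controls. The JQAD libraries at 6 h stood at 105.6 and 114.5, overlapping the controls, and the libraries of all compounds at 2 h lay between 113 and 129. The log2 change at 6 h was -1.09 ± 0.129 (SE) with dCBP (edgeR, adjusted p = 1.21e-05), -1.06 ± 0.128 with IHK-44 (adjusted p = 1.16e-05) and -0.42 ± 0.127 with A485 (adjusted p = 0.0330).

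BYSL, the bystin protein needed to finish the small subunit, stood at 42.3 and 42.6 count_norm in DMSO and NT at 6 h. It was at 21.1 (1 uM) and 29.2 (100 nM) with dCBP, at 22.4 and 24.9 with IHK-44 and at 27.5 and 34.7 with A485, all below the controls. Its log2 change was -0.91 ± 0.169 with dCBP (edgeR, adjusted p = 0.000470), -1.01 ± 0.169 with IHK-44 (adjusted p = 0.000191) and -0.53 ± 0.166 with A485 (adjusted p = 0.0389). DDX10, an RNA helicase, and HEATR1, the human UTP10, lay nearest the median of the group. DDX10 changed by -0.57 with dCBP, -0.51 under IHK-44 and -0.37 under A485, all past the threshold, and HEATR1 by -0.64, -0.43 and -0.23, the last not past it. NOP14 and RRP9 did not pass with any compound. NOP14 gave -0.09 with dCBP, -0.18 under IHK-44 and -0.15 under A485, and RRP9 gave -0.04, -0.35 and -0.41.

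Of the 10 factors of the large subunit, 7 were lower under dCBP, 8 under IHK-44 and 2 under A485. The shares of all genes that were lower were 22.4%, 21.4% and 8.7%. RRS1, which takes the 5S RNP into the early large subunit, was the lowest of all 40 in the mean of dCBP and IHK-44. It stood at 33.9 and 33.9 count_norm in DMSO and NT at 6 h. With dCBP it was at 16.5 (1 uM) and 20.2 (100 nM), with IHK-44 at 14.2 and 17.8, and with A485 at 16.6 and 27.1. At 2 h the order was the other way: DMSO and NT stood at 33.9 and 31.0, and the libraries of these 3 compounds between 39.2 and 47.8, all above the controls. The JQAD libraries stood at 35.9 (1 uM) and 32.6 (100 nM) at 2 h and at 42.9 and 39.9 at 6 h. The log2 change of RRS1 at 6 h was -1.04 ± 0.198 with dCBP (edgeR, adjusted p = 0.000552), -1.25 ± 0.197 with IHK-44 (adjusted p = 0.000117) and -0.72 ± 0.194 with A485 (adjusted p = 0.0214). At 2 h it was 0.37 ± 0.189 with dCBP and 0.40 ± 0.188 with IHK-44, neither past the threshold (edgeR, adjusted p = 0.250 and 0.281).

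NOP16, a nucleolar factor of the large subunit, stood at 14.8 and 17.9 count_norm in DMSO and NT at 6 h, at 9.66 and 10.5 with dCBP, at 9.32 and 7.92 with IHK-44 and at 10.5 and 12.1 with A485 (1 uM, then 100 nM). All 6 treated libraries lay below both controls. Its changes of -0.85 ± 0.161, -1.09 ± 0.161 and -0.62 ± 0.158 passed for each of these compounds (edgeR, adjusted p = 0.000515, 6.42e-05 and 0.0165). GNL3, known as nucleostemin, and WDR12, a partner of PES1 and BOP1 in the PeBoW complex, lay nearest the group's median. GNL3 changed by -0.46 with dCBP and -0.39 with IHK-44, and WDR12 by -0.47 and -0.38, all past the threshold. Of the other PeBoW genes, PES1 passed with IHK-44 alone (-0.53), and BOP1 with no compound. Under library sizes alone, GNL3, WDR12 and PES1 gave -0.225, -0.207 and -0.356 with IHK-44, and none of these passed. PPAN changed by -0.71 with dCBP and -0.76 with IHK-44, both past the threshold, and by -0.09 with A485. PPAN overlaps a read-through gene with P2RY11, so its counts are uncertain where reads were shared.

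**Figure D2:**
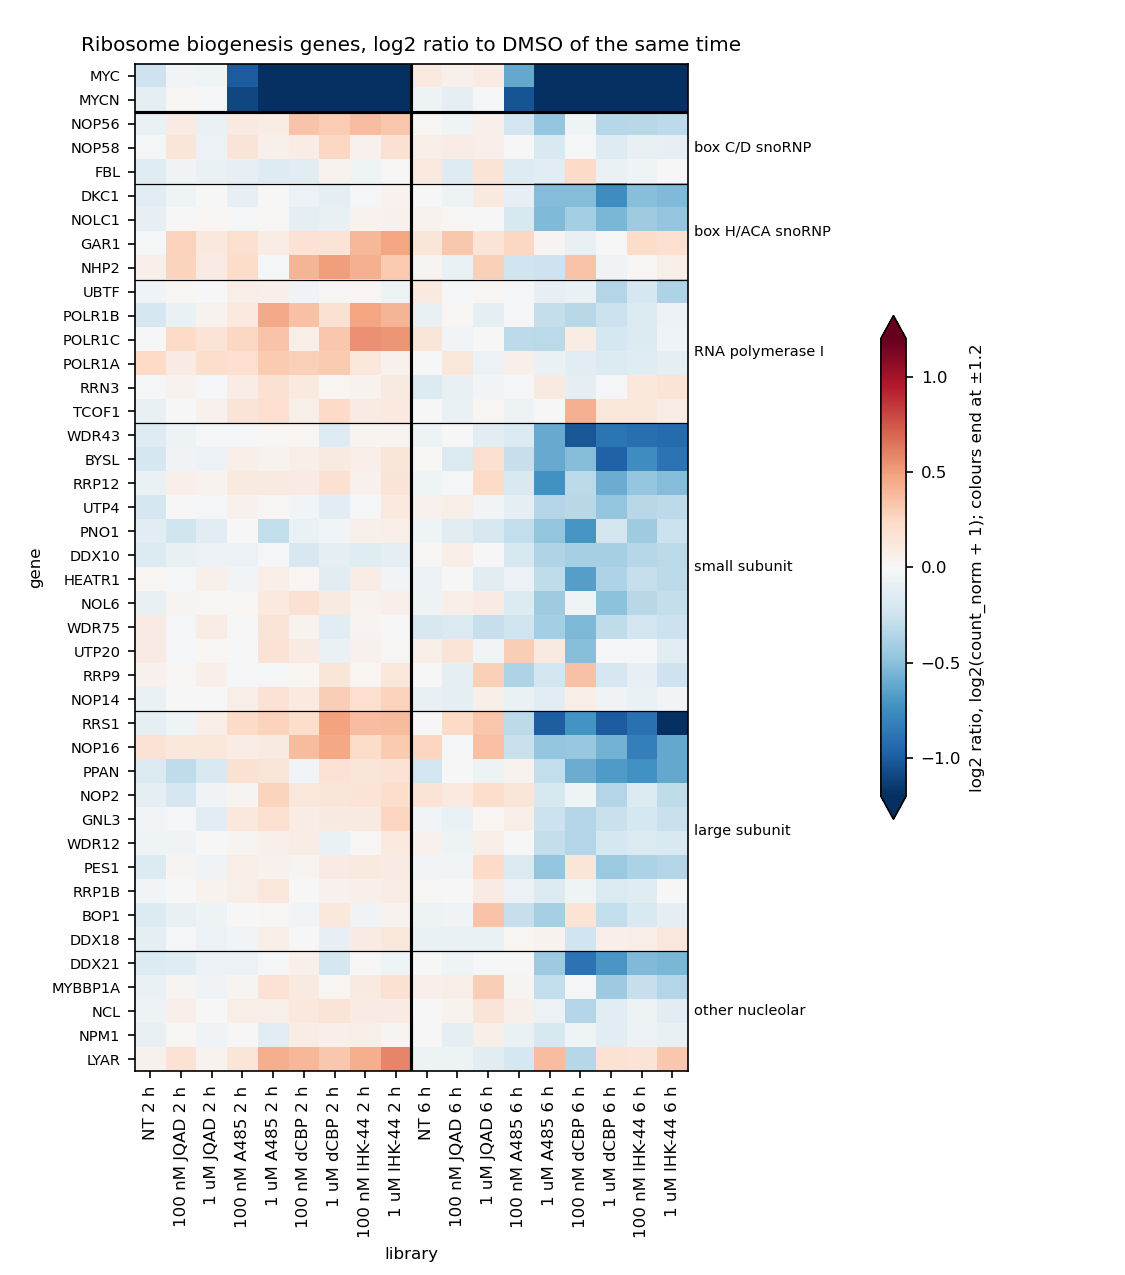
Heat map of the log2 ratio of each treated or NT library (columns) to DMSO at that time, on log2(count_norm + 1) without further scaling, for MYC, MYCN and the 40 genes (rows, by role). Colours end at ±1.2, which MYC and MYCN exceed. At 6 h, RRS1, WDR43, BYSL, DDX21 and DKC1 are blue with dCBP, IHK-44 and 1 uM A485, while their JQAD and NT columns are paler.

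The small nucleolar RNP proteins split. Among the 4 box H/ACA genes, which serve pseudouridylation, DKC1 and NOLC1 fell with dCBP and IHK-44, and GAR1 and NHP2 did not pass. DKC1, the pseudouridine synthase dyskerin, stood at 205 and 206 count_norm in DMSO and NT at 6 h, at 122 and 143 with dCBP, at 141 and 143 with IHK-44 and at 143 and 192 under A485. Its log2 change was -0.79 ± 0.133 with dCBP (edgeR, adjusted p = 0.000208), -0.70 ± 0.133 with IHK-44 (adjusted p = 0.000579) and -0.38 ± 0.132 with A485 (adjusted p = 0.0605). NOLC1, a chaperone of these particles, changed by -0.66, -0.64 and -0.46, all past the threshold. GAR1 gave -0.28 with dCBP and -0.02 with IHK-44, and NHP2 gave -0.01 and -0.14. NHP2 stood at 81.0 and 82.9 count_norm in the controls at 6 h and at 78.7 and 102.7 with dCBP, so its libraries overlap. Among the 3 box C/D genes, which serve 2'-O-methylation, NOP56 and NOP58 fell with dCBP and with IHK-44, and FBL, the methyltransferase, did not pass. NOP58, nearest the median, changed by -0.28 and -0.30, and with A485 NOP56 alone passed at -0.44. With library sizes alone NOP58 gave -0.125 with dCBP and -0.132 with IHK-44, and neither passed. Under that scaling NOP56 gave -0.201 with dCBP and did not pass, while it passed with IHK-44.

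The 6 genes of RNA polymerase I and its factors gave 3 lower with dCBP, 3 with IHK-44 and 1 under A485. The shares of all genes that were lower were 22.4%, 21.4% and 8.7%. UBTF, the upstream binding factor of the ribosomal DNA, changed by -0.43 with dCBP (edgeR, adjusted p = 0.00399) and by -0.51 with IHK-44 (adjusted p = 0.00114). The catalytic subunit gene POLR1A changed by -0.30 and -0.29, both past the threshold. With library sizes alone POLR1A gave -0.145 and -0.126, and neither passed. POLR1C, a subunit shared with RNA polymerase III, changed by -0.36 with IHK-44 and -0.51 with A485, both past the threshold, and by -0.29 with dCBP, which was not. Under library sizes alone POLR1C gave -0.193 with IHK-44 and did not pass. RRN3, the initiation factor TIF-IA, and TCOF1, the treacle protein, were at the top of the order. RRN3 gave -0.15 with dCBP and 0.06 with IHK-44, and its counts are uncertain because near-identical pseudogene copies exist. TCOF1 stood at 184 and 183 count_norm in the controls at 6 h, at 202 and 247 with dCBP, at 196 and 202 with IHK-44 and at 185 and 176 under A485. Its libraries with dCBP and IHK-44 lay above the controls on that scale, while its fitted changes were 0.14 ± 0.099 and -0.05 ± 0.099, and neither passed.

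The remaining 5 nucleolar genes gave 4 lower with dCBP, 4 with IHK-44 and none under A485, where 2 passed at an unadjusted p under 0.05. The shares of all genes that were lower were 22.4%, 21.4% and 8.7%. DDX21, an RNA helicase that acts with both RNA polymerases I and II, stood at 194 and 195 count_norm in DMSO and NT at 6 h. It was at 119 (1 uM) and 105 (100 nM) with dCBP, at 132 and 134 with IHK-44, and at 143 and 195 with A485. The libraries of dCBP and IHK-44 lay below all others, and the 100 nM A485 library lay among the controls. The log2 change was -0.96 ± 0.135 with dCBP (edgeR, adjusted p = 4.36e-05), -0.72 ± 0.134 with IHK-44 (adjusted p = 0.000481) and -0.28 ± 0.133 with A485 (adjusted p = 0.147). NCL, nucleolin, lay nearest the median at -0.39 and -0.26, both past the threshold. NPM1, nucleophosmin, changed by -0.25 with each compound, both past the threshold, and has many pseudogene copies that can share its reads. With library sizes alone NPM1 gave -0.097 with dCBP and -0.078 with IHK-44, and neither passed. Under that scaling NCL passed with dCBP and not with IHK-44. LYAR, a nucleolar zinc finger protein, gave -0.19 with dCBP and 0.11 with IHK-44. It stood at 21.3 and 20.3 count_norm in the controls at 6 h, at 24.1 and 16.6 with dCBP and at 26.8 and 23.8 with IHK-44.

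Per length, the order of the genes in the controls was led by NPM1 at a mean of 499 TPM, FBL at 310 and NCL at 185, and closed by POLR1B at 8.39 and WDR12 at 7.38. Genes that fell with dCBP and IHK-44 stood at both ends of it: NPM1 and NCL at the top, WDR12 at the bottom. FBL, and NHP2 at 141 TPM, also stood near the top and did not pass with any compound.

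At 2 h, when MYC and MYCN were already low, none of the 40 genes was lower with any compound. With dCBP none passed in either direction, against 5.63% of all genes, and 3 passed at an unadjusted p under 0.05. With IHK-44 POLR1B and POLR1C were higher, by 0.49 ± 0.125 (edgeR, adjusted p = 0.0308) and 0.51 ± 0.129 (adjusted p = 0.0284), against 4.88% of all genes changed. Both calls were lost when any 1 of the 4 libraries behind them was left out. With A485 none of the 40 passed (0.0452% of all genes, and 1 of the 40 at an unadjusted p under 0.05). With JQAD none did either (0% of all genes, and 0 of the 40 unadjusted). DESeq2 called 0 for dCBP, A485 and JQAD and 2 for IHK-44. The medians at 2 h were 0.073 for dCBP and 0.09 for IHK-44, and 0.075 for A485 and 0.057 for JQAD. Over all genes they were 0.020, 0.013, 0.004 and 0.001. Set against DMSO alone, on log2(count_norm + 1), the median of the 40 genes at 2 h was 0.001 with 1 uM JQAD and -0.005 with 100 nM JQAD, and it was -0.083 with NT. For the other compounds it lay between 0.072 and 0.114.

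**Figure D3:**
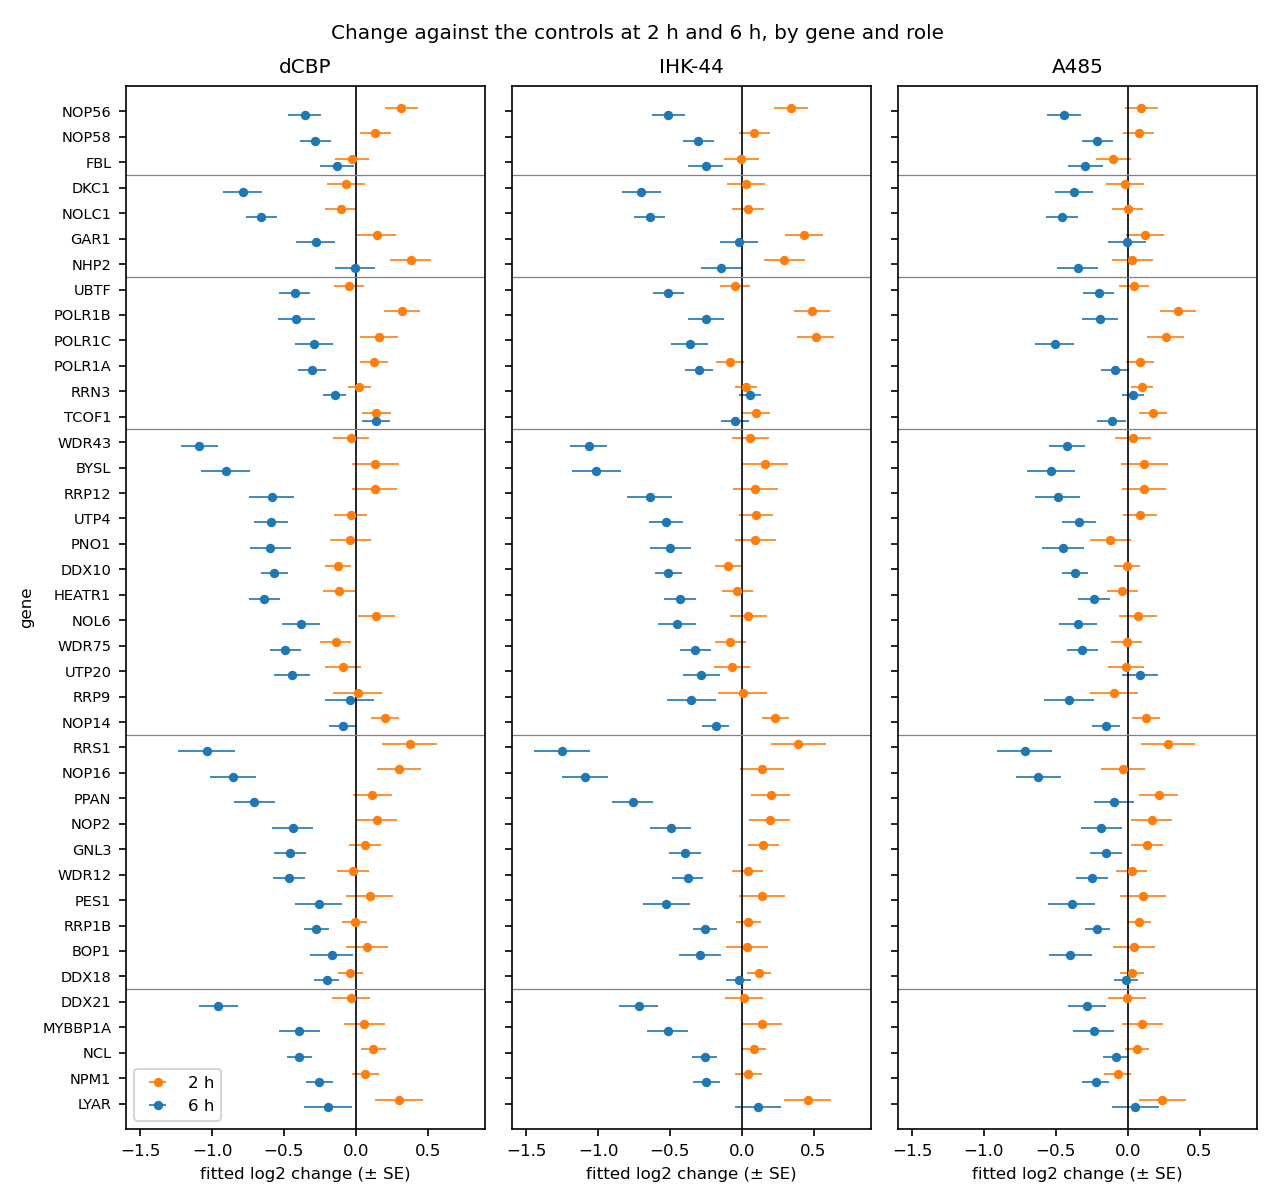
Fitted log2 change from the controls (x axis, ± SE) of each of the 40 genes (rows, by role) at 2 h (orange) and at 6 h (blue), with dCBP, IHK-44 and A485. WDR43, BYSL, RRS1, NOP16, DKC1 and DDX21 lie near or above 0 at 2 h and below -0.65 at 6 h with dCBP and IHK-44. TCOF1, RRN3 and LYAR stay near 0 at 6 h.

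The change from 2 h to 6 h was tested as the interaction of time with treatment. With dCBP 15 of the 40 genes had a lower change at 6 h than at 2 h and none a higher one, against 9.06% of all genes in either direction. With IHK-44 the count was again 15 lower and none higher, against 9.89%. The median difference was -0.45 with dCBP and -0.46 with IHK-44, and -0.005 and -0.004 over all genes. RRS1 had the largest, -1.41 ± 0.273 with dCBP (edgeR, adjusted p = 0.00783) and -1.65 ± 0.273 with IHK-44 (adjusted p = 0.00209). WDR43 gave -1.05 ± 0.180 (edgeR, adjusted p = 0.00599) and -1.12 ± 0.179 (adjusted p = 0.00187). With A485 no gene of the 40 passed (0.00754% of all genes), 15 passed at an unadjusted p under 0.05, and the median difference was -0.31. With JQAD none passed (0% of all genes, and 0 of the 40 unadjusted), and DESeq2 called none for A485 or JQAD. Leaving out 1 library gave between 4 and 18 genes for dCBP, with 4 to 8 without either 2 h dCBP library or any 1 control library. It gave between 7 and 13 for IHK-44, with 7 or 8 without DMSO at 6 h, NT at either time, 1 uM IHK-44 at 6 h or 100 nM IHK-44 at 2 h. With A485 it gave 13 without the 100 nM library at 6 h. The same interaction for MYC itself did not pass, at -2.28 ± 1.18 with dCBP (edgeR, adjusted p = 0.241). In the controls the 40 genes moved little as a set over the same interval. The median of their differences, 6 h less 2 h, was 0.004 in DMSO and 0.077 in NT, on log2(count_norm + 1). Single genes moved more, between -0.328 and 0.465 in DMSO and between -0.37 and 0.368 in NT.

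The summed level of the 40 genes shows the same order by library. It was 5426 count_norm in DMSO and 5245 in NT at 2 h, and 5430 and 5442 at 6 h. At 2 h the A485, dCBP and IHK-44 libraries lay between 5611 and 5771, above both controls. At 6 h dCBP stood at 4558 (1 uM) and 4754 (100 nM), IHK-44 at 4748 and 4782, and A485 at 4671 and 5250, all below both controls. JQAD stood at 5459 (1 uM) and 5467 (100 nM) at 2 h, also above both controls. At 6 h it stood at 5656 and 5403, the first above and the second below both controls. With A485 at 1 uM, MYC and MYCN together were at 12.4 count_norm at 2 h and 13.3 at 6 h. The sum of the 40 genes was 5726 and 4671 in the same libraries. Each of these values is from 1 library, and no gene of the 40 passed the test of time with A485. MYC and MYCN together were lower with dCBP and IHK-44 at 6 h, between 2.29 and 4.74, yet the summed levels there, between 4558 and 4782, were close to that of 1 uM A485. The order depends on the scale. On log2(TPM + 1) the 40 genes' median ratio to DMSO at 2 h was below 0 with dCBP (-0.463 and -0.288) and IHK-44 (-0.337 and -0.457). So was that of all genes tested, at -0.409, -0.26, -0.313 and -0.423. With 1 uM A485 at 6 h the 40 genes' median was 0.053 and that of all genes 0.398. With dCBP and IHK-44 at 6 h the 40 genes' medians lay between -0.877 and -0.519.

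**Figure D4:**
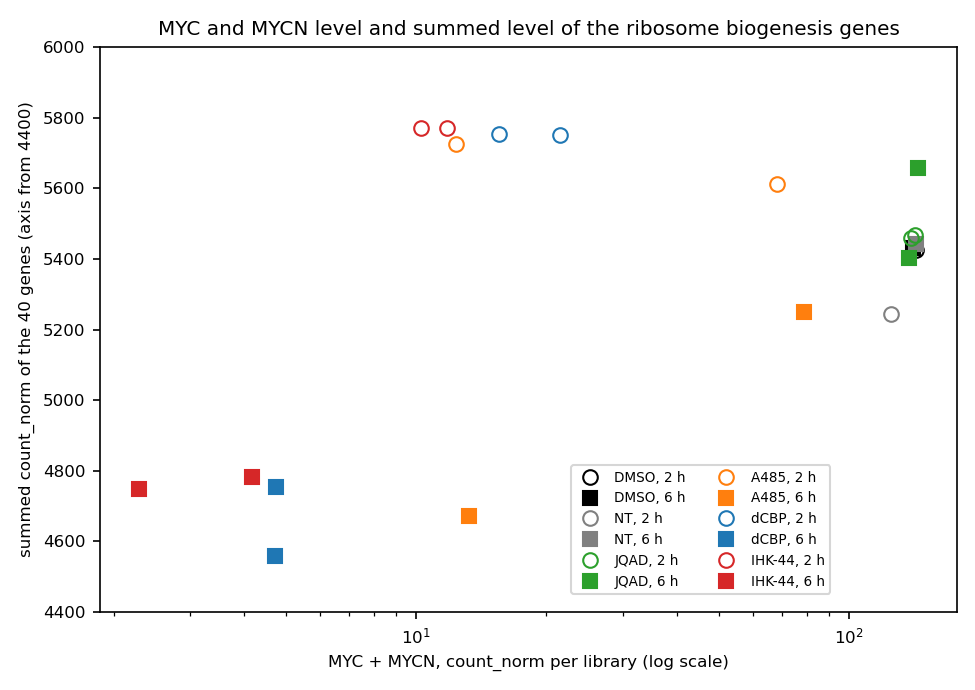
Summed count_norm of the 40 genes (y axis, which does not begin at 0) against MYC plus MYCN in count_norm (x axis, log scale) in each of the 20 libraries, with open circles for 2 h and filled squares for 6 h. Libraries with low MYC and MYCN lie high at 2 h, between 5726 and 5771, and low at 6 h, between 4558 and 4782.

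Single libraries were also set against DMSO of the same time on log2(count_norm + 1), where no test is possible. At 6 h a fall of at least 1.5-fold was seen in 7 of the 40 genes with 1 uM dCBP (10.1% of all genes), 6 with 100 nM dCBP (13.1%), 5 with 1 uM IHK-44 (11.1%) and 5 with 100 nM IHK-44 (10.6%). It was seen in 4 with 1 uM A485 (8.57%), none with 100 nM A485 (2.35%), none with JQAD at 1 uM or 100 nM (0.747% and 0.452%), and none with NT (0.468%). With 100 nM dCBP, IHK-44 at each dose and 1 uM A485, the share of the 40 genes was close to that of all genes. With 1 uM dCBP that share was higher. These counts depend on where 0 is set: with the ratios centred on the median of all genes tested they were 14 and 11 for dCBP (14.8% and 18.3% of all genes), 10 and 10 for IHK-44 (16% and 14.6%) and 10 and 0 for A485 (11.3% and 2.71%). Without that centring the medians were -0.28 and -0.28 with dCBP, -0.26 and -0.19 with IHK-44, -0.29 and -0.09 with A485, and 0.003 with NT, while the medians of all genes were above 0 in each of those treated libraries, between 0.035 and 0.215.

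Dose was tested within each compound over both times. No gene of the 40 passed for any compound, against 0.929% of all genes for A485, 0.107% for IHK-44, and 0% for both dCBP and JQAD. DESeq2 also called 0 for each. At an unadjusted p under 0.05 the counts were 1 for A485 and 0 for the others, and the 1 gene was LYAR, higher at 1 uM A485. For A485 the difference of 1 uM from 100 nM was below 0 in 37 of 40 genes, with a median of -0.16 against -0.004 for all genes, and the lowest was RRS1 at -0.38 ± 0.201 (edgeR, adjusted p = 0.578). MYC and MYCN themselves were lower at 1 uM than at 100 nM A485, by -2.91 ± 0.167 and -2.28 ± 0.228 (edgeR, adjusted p = 1.85e-05 and 0.00184). The fit has 4 residual degrees of freedom, so differences of this size may not be detectable. The dose term also averages 2 h and 6 h, so a difference between doses at 6 h alone was not tested. In single libraries against DMSO, the A485 medians of the 40 genes were 0.081 (1 uM) and 0.074 (100 nM) at 2 h. At 6 h they were -0.289 and -0.087.

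The 6 pairs of compounds were compared at 6 h over matched doses, with p-values adjusted over all genes within each pair. Structures are not compared here, since the labels give names only. Between dCBP and IHK-44 no gene of the 40 differed (0.00754% of all genes, and 1 of the 40 at an unadjusted p under 0.05). DESeq2 called none. The 95% intervals of the 40 differences lay between -0.65 and 0.67. Between A485 and dCBP 7 genes differed, all less lowered with A485, against 26.6% of all genes. They were WDR43, DDX21, PPAN, UTP20, HEATR1, DKC1 and NCL. Between A485 and IHK-44 3 differed in the same direction, WDR43, DDX21 and PPAN, against 12.9%. WDR43 was higher with A485 by 0.67 ± 0.129 than with dCBP (edgeR, adjusted p = 0.00273) and by 0.64 ± 0.128 than with IHK-44 (adjusted p = 0.00493). For RRS1, NOP16 and BYSL, the 3 lowest genes with A485, the differences of 0.32, 0.23 and 0.38 from dCBP did not pass. JQAD was the higher in 28 genes that differed from dCBP (43.1% of all genes differed), in 26 against IHK-44 (41.7%) and in 11 against A485 (14%).

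Other genes of ribosome biogenesis, a list of 74, also held more lower than higher genes. With dCBP 26 were lower (35.1%, against 22.4% of all genes) and 2 higher. With IHK-44 22 were lower (29.7%, against 21.4%) and 5 higher. With A485 6 were lower, a share of 8.11% that is below the 8.7% of all genes, and 1 was higher. With JQAD none passed, and 1 did at an unadjusted p under 0.05. Their medians were -0.19, -0.14, -0.13 and 0.023. The 4 lowest that passed with both dCBP and IHK-44 were NOC3L, MRTO4 and the helicase DHX33 with WDR3. NOC3L, a large subunit export factor, changed by -1.03 and -0.67, MRTO4, the mRNA turnover 4 homolog of the large subunit, by -0.82 and -0.86, DHX33 by -0.86 and -0.76, and WDR3 of the small subunit by -0.82 and -0.68. All 4 also passed with A485. RRP8, a methyltransferase of the 28S rRNA, went the other way with both, by 0.49 ± 0.101 (edgeR, adjusted p = 0.00110) and 0.32 ± 0.101 (adjusted p = 0.0179). It stood at 23.5 and 23.6 count_norm in the controls at 6 h and between 32.9 and 38.0 in the 4 libraries of dCBP and IHK-44. POLR1D changed by -0.28 and -0.33.

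Of 18 MYC-type targets outside ribosome biogenesis, 9 were lower under dCBP, 7 under IHK-44 and 5 under A485, against 22.4%, 21.4% and 8.7% of all genes. None passed under JQAD, where none did unadjusted either. No gene of that list was higher with any of these. The polyamine enzyme ODC1 changed by -0.47 with dCBP, -0.62 under IHK-44 and -0.64 under A485, and the cyclin CCND2 by -1.32, -1.24 and -0.64, all past the threshold. CAD, of pyrimidine synthesis, and SRM, spermidine synthase, did not pass, with 0.15 and 0.03 for dCBP. Within the MYC family list, MYCL was lower with dCBP (-1.98), IHK-44 (-2.51) and A485 (-1.49), all past the threshold, and MAX, the partner of these proteins, gave 0.29, 0.12 and -0.11 and did not pass.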

How the data were processed

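RNA-seq libraries (20) of RH4 cells were used, and 11 ChIP-seq samples and 1 ChRO-seq sample were not analysed here. The authors deposited per gene an expected count, a TPM value and count_norm, which is a CPM of the expected counts over coding rows, per the file headers and values. The submitters' processing notes name STAR 2.5.3a, RSEM 1.3.3 and hg38, with no role or order, and strand is not given in the sources used here. The expected counts, made whole by rounding, entered edgeR 4.0.16 (R 4.3.3, TMM, filterByExpr, quasi-likelihood F test, Benjamini-Hochberg over 13260 genes, adjusted p under 0.05). The model had 10 levels of 2 libraries and 10 residual degrees of freedom. Dose was fitted in the 16 treated libraries with compound and time as a block (13137 genes). SE is the change divided by the square root of F, and intervals are 95%. limma 3.58.1 and DESeq2 1.42.0 were alternatives. The scripts were tested on simulated data with 1 common spread for all genes. A true log2 change of 0.5 was recovered in 42% of changed genes for dCBP at 6 h. It was recovered in 7% for the change of dCBP from 2 h to 6 h and in 39% for the dose of A485. At a true log2 change of 1 these were 99%, 82% and 97%. Ratios of single libraries used log2(count_norm + 1), which understates low genes.

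The genes and lists were chosen with earlier results of these data known. Named genes were MYC and MYCN, the 6 lowest and 4 highest of the 40 at 6 h (mean of dCBP and IHK-44), the 3 lowest with A485, the gene nearest each role's median (ties both named), and of the other ribosome biogenesis genes called with both compounds the 4 lowest and 2 highest. Other genes were named after their values were seen. Marker genes were from a fixed list.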

Additional observations from a re-analysis of the deposited data

Results flagged for a closer look

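Some effects differed between times or compounds by a test of the difference itself. The change of 15 of the 40 ribosome biogenesis genes differed between 6 h and 2 h with dCBP, and that of 15 with IHK-44, all lower at 6 h, RRS1 by most. Of all genes, 9.06% and 9.89% differed. At 6 h, 7 genes differed between A485 and dCBP and 3 between A485 and IHK-44, WDR43, DDX21 and PPAN among both. Of the 40 genes these are 17.5% and 7.5%, below the 26.6% and 12.9% of all genes that differed. Set against JQAD, 28 genes differed for dCBP, 26 for IHK-44 and 11 for A485, against 43.1%, 41.7% and 14% of all genes. The muscle markers MYOD1, MYOG and PAX3 also fell with dCBP and IHK-44 at 6 h (MYOD1 by a log2 of -2.64 and -2.31), and their part in these results was not tested.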

How the results depend on the processing

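Reported counts of lower genes at 6 h were 28 (dCBP), 28 (IHK-44) and 10 (A485). They were 18 and 16 for dCBP and IHK-44 with library sizes alone, with limma on log2(count_norm + 1) or with 0.1 added, and with DMSO alone as control, where A485 gave 0. An additive model of treatment and time, which averages 2 h and 6 h, gave 3, 1 and 0. Library sizes alone and both limma settings also called 1 gene higher with dCBP and 1 with IHK-44. Leaving out 1 library gave 19 to 28 lower genes with dCBP (and 0 to 1 higher), 14 to 20 with IHK-44, 0 to 24 with A485, 0 changed with IHK-44 at 2 h, and 4 to 18, 7 to 13 and 0 to 13 whose change differed with time for dCBP, IHK-44 and A485. All 28, 28 and 10 called genes kept their sign in 11 of 11 settings of the 6 h comparison, which leave out the additive model, and 15, 13 and 0 were called in each of the 11. The medians, -0.404 and -0.385 for dCBP and IHK-44, were -0.427 and -0.412 with DESeq2 or its size factors, -0.248 and -0.216 with library sizes alone, -0.253 and -0.213 (+ 1) and -0.256 and -0.216 (+ 0.1) with limma, -0.377 and -0.402 with DMSO alone, -0.159 and -0.171 in the additive model, and -0.418 for dCBP with no filter. Without 1 library they ran from -0.437 to -0.375 (dCBP), -0.438 to -0.372 (IHK-44) and -0.405 to -0.13 (A485). At 2 h, library sizes alone or limma (+ 1) changed 1 gene with dCBP and 4 with IHK-44, and DMSO alone 0 with IHK-44. A485 and IHK-44 differed in 5 genes with no filter and 7 with DESeq2. The median of single libraries past 1.5-fold, 5.5 genes, became 0.5 at 2-fold, 10.5 with ratios centred on all genes and 22.5 with TPM. The causes were not tested. No paired analysis was possible because each condition has 1 library and replicate numbers pair nothing. Small changes may not be detectable with 2 libraries per level.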
